A study of Mus musculus with 7 samples.

Results

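The 9 genes described here encode receptors that thrombin and related proteases cleave, proteins that start coagulation at the cell surface, and proteins that control the activation of plasminogen. They are F2r, F2rl1, F2rl2, F3, F10, Plau, Plaur, Serpinb2 and St14, taken by symbol from the 24421 genes of the count table, and all 9 were found there and had reads. RNA sequencing was done on eosinophils sorted from digested, damaged mouse muscle on day 3 after ntx, an abbreviation that the labels do not spell out. The sort kept cells positive for CD45 and SiglecF and negative for NK1, Ly6G and CD3e, with CD11b written as CD11bing. The groups were 3 libraries labelled WT and 4 labelled IL5-Tg, named for a transgene of IL-5, the main growth and survival cytokine of these cells. The genotype labels of these libraries name no other allele, age or treatment agent, nor the promoter of the transgene, and do not say whether the libraries came from separate mice, so the spread between libraries may be technical in part. The title of the study names mdx mice, a model of Duchenne muscular dystrophy, and whether these libraries carry that allele is not given. The set was built around F2r, Plaur and St14 because these were higher in IL5-Tg than in WT libraries in this same comparison, so their differences are given as a description and support nothing.

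Thrombin, the last protease of the coagulation cascade, cuts the outer end of a protease-activated receptor, and the new end then acts as a tethered ligand that switches on G proteins. Tissue factor, encoded by F3, starts the cascade on cell surfaces, and factor X, encoded by F10, is the protease through which it leads to thrombin. Urokinase, encoded by Plau, converts plasminogen to plasmin, which dissolves fibrin, and its receptor, encoded by Plaur, holds it at the cell surface. In injured muscle this system is known to take part in clearing fibrin and in the entry of inflammatory cells.

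Of the 9 genes, 6 had a promoter entry in RefSeq (GRCm38.p6), and 5 of these held the AP-1 motif TGANTCA, on either strand, within 250 bases upstream of the start. St14, Plau and F2rl1 had no entry and were not searched. The same motif was found in 6.75% of the 32851 promoter windows of that length. That share is counted per window, and the 6 genes had 7 windows, with an extra window for Serpinb2. The sequences of 4 are shown because the motif was present both in called genes (F2r and Plaur) and in genes not called (F3 and Serpinb2). They are read 5′ to 3′ on the strand of the gene, with the AP-1 motif in capitals. The F2r window is chr13:95618467-95618716 on the minus strand, that of Plaur chr7:24462233-24462482, that of F3 chr3:121723287-121723536 and the first of those of Serpinb2 chr1:107511173-107511422, all of these last on the plus strand.
F2r: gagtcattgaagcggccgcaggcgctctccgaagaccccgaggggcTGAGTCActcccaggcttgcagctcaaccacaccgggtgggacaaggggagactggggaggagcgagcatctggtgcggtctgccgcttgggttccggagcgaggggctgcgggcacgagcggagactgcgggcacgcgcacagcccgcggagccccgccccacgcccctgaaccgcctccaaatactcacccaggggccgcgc
Plaur: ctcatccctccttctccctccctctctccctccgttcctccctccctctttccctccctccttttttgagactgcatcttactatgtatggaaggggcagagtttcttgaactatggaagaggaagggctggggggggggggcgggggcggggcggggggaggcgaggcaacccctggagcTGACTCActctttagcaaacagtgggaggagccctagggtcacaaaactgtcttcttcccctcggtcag
F3: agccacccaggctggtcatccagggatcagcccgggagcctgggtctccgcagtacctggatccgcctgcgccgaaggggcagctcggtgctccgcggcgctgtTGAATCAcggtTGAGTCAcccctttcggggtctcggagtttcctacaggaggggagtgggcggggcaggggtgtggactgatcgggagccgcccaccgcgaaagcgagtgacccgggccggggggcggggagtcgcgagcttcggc
Serpinb2: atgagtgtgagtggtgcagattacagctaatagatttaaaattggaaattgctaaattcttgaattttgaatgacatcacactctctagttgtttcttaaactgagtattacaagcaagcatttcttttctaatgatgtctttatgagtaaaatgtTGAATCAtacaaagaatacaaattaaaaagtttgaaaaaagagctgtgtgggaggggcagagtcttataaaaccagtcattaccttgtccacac
The match lay at -204 to -198 from the start in F2r, at -69 to -63 in Plaur and at -94 to -88 in the first Serpinb2 window. F3 had matches at -146 to -140 and at -135 to -129. F2rl2, whose sequence is not shown, had them at -233 to -227 and at -54 to -48. Positions are relative to the RefSeq starts. The F2rl2 window, chr13:95696670-95696919, reaches past the GENCODE start of that gene given below, 95696853. Its match at -54 to -48 lies inside the gene by that start. F10 had none. The GATA motif AGATAA, present in 9.99% of all windows, was found in 2 of the 6 genes, F2rl2 and Serpinb2. The STAT motif TTCNNNGAA, present in 7.02%, was found in 1, Serpinb2, and each was searched on both strands. In Serpinb2 the STAT match (-77 to -69) and the GATA match (-41 to -36) lay only in the extra window, chr1:107511260-107511509. The sequence of that window is not shown. A match describes letters and not binding.

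Total counts were 11581365 to 20231509 per library, and genes took 9665093 to 17447106 of them. The share of reads on no feature was 15.6% to 18.2% in WT and 9.15% to 13% in IL5-Tg, without overlap, and 13813, 12759 and 10877 genes were detected in WT against 13641 to 14391 in IL5-Tg. Their part in the results was not tested. The transgene's own gene, Il5, had 3722 to 7097 reads in each IL5-Tg library and 23, 0 and 0 reads in the 3 WT libraries, which are given in replicate order here and below. Levels are given as CPM, the reads of a gene relative to the size of its library, with sizes scaled by the trimmed mean of M values (TMM). The sorted cells carried eosinophil RNA in every library. Alox15, the eosinophil marker with the highest level, stood at 2370 to 4660 CPM in WT and 3272 to 6109 CPM in IL5-Tg, and the eotaxin receptor gene Ccr3 at 640 to 1393 and 575 to 1058 CPM. Of 10 eosinophil markers 3, the granule protein genes Prg2, Ear1 and Ear6, were called higher in IL5-Tg by edgeR, 5 had groups that did not overlap, all higher, and the median log2 fold change was 1.10. Over all tested genes 0.338% were called higher, and 4.76% were higher with groups that did not overlap. The 10 eosinophil markers summed to 3544 to 7064 CPM in WT and 5012 to 9419 CPM in IL5-Tg. Of the 10 markers, 8 had a positive log2 fold change, as F2r, Plaur and St14 did and as 6472 of all 12428 tested genes did. The exceptions were Ccr3 and the IL-5 receptor gene Il5ra, whose group means were lower in IL5-Tg. Il5ra ranged from 83.8 to 181 CPM in WT and from 47.97 to 88.3 CPM in IL5-Tg, with overlap. The part of eosinophil RNA in the differences of F2r, Plaur and St14 was not tested. RNA of other cells was present as well, and its amount differed between libraries. Muscle markers summed to 341, 404 and 104 CPM in WT and to 1263, 406, 646 and 508 CPM in IL5-Tg. All 9 that were tested had a positive log2 fold change, with a median of 1.55, 3 had groups that did not overlap and 0 were called. The shares over all tested genes are those given above. The part of muscle RNA in the results was not tested either. The summed level of 9 fibroblast markers was 2974, 3295 and 16.7 CPM in WT and ranged from 1962 to 4715 CPM in IL5-Tg. Pdgfra, Lum and Mfap5 were at 0 in WT replicate 3. In a sorted population, fewer cells of a type and less RNA per cell cannot be told apart. Among low counts, the one that most genes shared was 5, 8 and 12 reads in WT and 1, 1, 1 and 4 in IL5-Tg, and how many molecules lay behind a low WT level was not tested.

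All 9 genes passed the filter on low counts. By edgeR's quasi-likelihood test across 12428 genes, 3 of the 9, F2r, Plaur and St14, were called higher in IL5-Tg, 0 were called lower and 6 were not called. Over all tested genes 0.338% were called higher and 0.0724% lower, and nothing is read from the difference, since the members were chosen from this comparison. The same 3 genes had groups that did not overlap, as 9.36% of all tested genes did, 4.76% higher and 4.60% lower in IL5-Tg. The median log2 fold change of the 9 was 1.68 and that of all tested genes 0.03. The called member nearest to the threshold was St14, with an edgeR adjusted p of 0.0487, and the nearest beyond it was F2rl2, with 0.413.

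**Figure D1:**
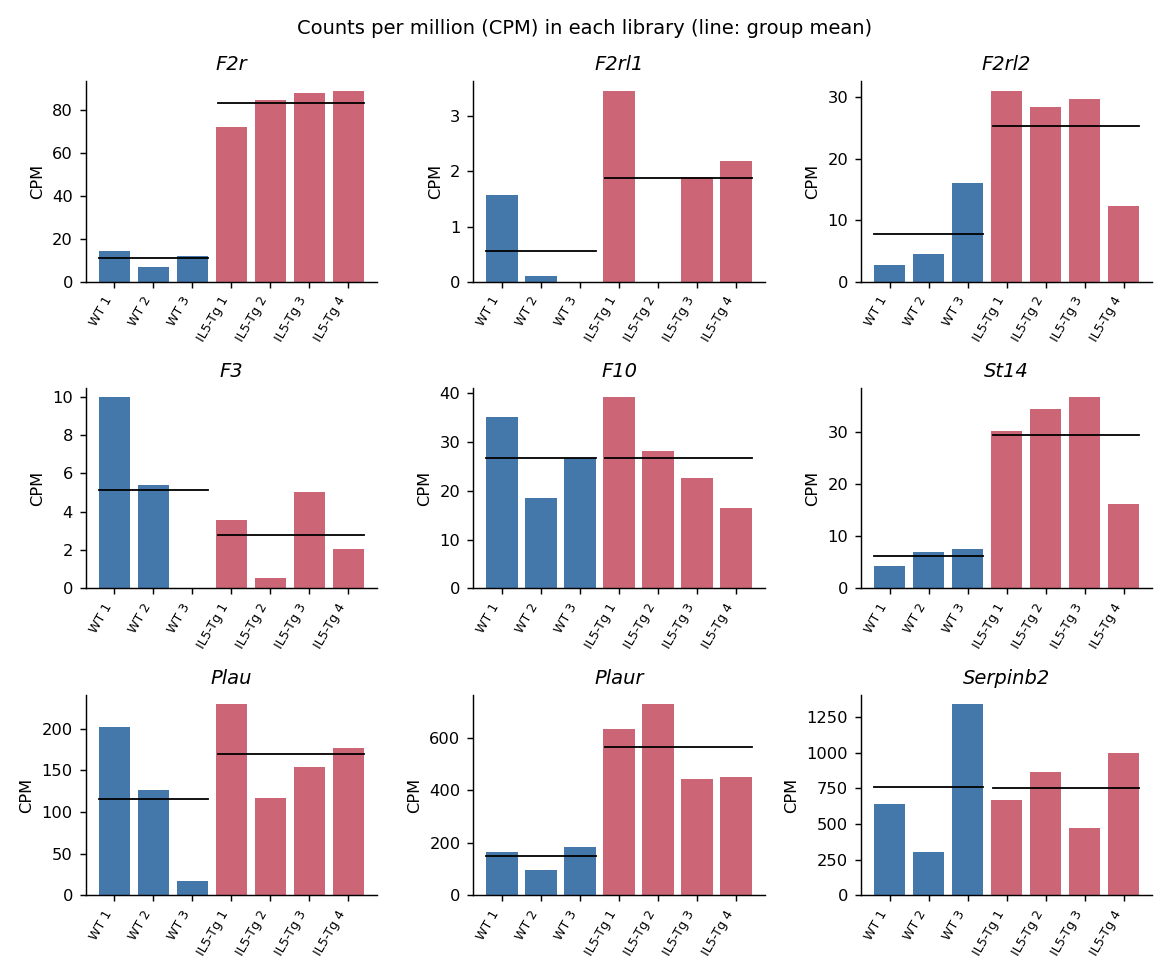
Level of each of the 9 genes in CPM (vertical axes, each from 0) in the 3 WT (blue) and 4 IL5-Tg (red) libraries, with the group mean as a line. F2r, Plaur and St14 were higher in every IL5-Tg than in every WT library, while the groups of the other 6 genes overlapped.

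F2r, which encodes the thrombin receptor PAR1, had the largest log2 fold change of the 9 in the edgeR fit. The WT libraries held 14.2, 6.65 and 12.2 CPM, and the IL5-Tg libraries held 72.3, 84.5, 88.0 and 89.1 CPM. The IL5-Tg libraries lay close together and far above the WT libraries. The WT mean was 11 ± 3.91 CPM (SD, n = 3) and the IL5-Tg mean 83.5 ± 7.71 CPM (SD, n = 4). The log2 fold change was 2.92 ± 0.31 (SE), and the edgeR adjusted p by which it was chosen was 0.00311. F2r was called under all 16 alternative settings, with a log2 fold change of 2.69 to 3.17. That was also so when the WT library nearly free of fibroblast RNA was left out (3.02) and when counts were divided by each library's most common low count (2.89).

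F2rl2 encodes PAR3, which in mouse platelets helps thrombin to cut another receptor of the family. It stood at 2.78, 4.43 and 16.1 CPM in the WT group, while the IL5-Tg group had 31.1, 28.4, 29.7 and 12.3 CPM. WT replicate 3 was above IL5-Tg replicate 4, so the groups overlapped, and the other libraries were separated. At a log2 fold change of 1.71 ± 0.60 (SE), the gene was not called. Without WT replicate 3 it was 2.85, with an edgeR adjusted p of 0.0158. Among the alternatives this was the 1 setting in which F2rl2 was called.

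F2rl1 encodes PAR2, the receptor that trypsin-like proteases other than thrombin cut. It was close to the limit of detection, with 26, 1 and 0 reads in the WT libraries and 37, 0, 26 and 42 reads in the IL5-Tg libraries. The libraries with no read allow up to 3.40 CPM in WT replicate 3 and 0.231 CPM in IL5-Tg replicate 2 by a floor of 3 times the most common low count of the library, a limit for counting error only. No difference was detectable at this depth, and the fitted log2 fold change of 1.68 ± 1.63 (SE) moved between 1.14 and 4.97 over the alternatives. F2rl3, the PAR4 gene and the remaining receptor of the family, had 9, 0 and 0 reads in WT and 25, 34, 12 and 8 reads in IL5-Tg libraries.

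The genes F2rl1, F2r and F2rl2 lie next to each other on chromosome 13 within 191.0 kb (mm10, GENCODE vM21). F2rl1 is at 95511732 to 95525227 and F2r at 95601803 to 95618487 on the minus strand, and F2rl2 is at 95696853 to 95702739 on the plus strand. F2rl2 lies inside an intron of Iqgap2, a scaffold protein gene on the opposite strand, with which it shares no exon. Iqgap2 averaged 37.6 ± 11.9 CPM (SD, n = 3) in WT against 66.0 ± 9.0 CPM (SD, n = 4) in IL5-Tg, with a log2 fold change of 0.81 ± 0.27 (SE) and an edgeR adjusted p of 0.390. All 4 genes of the stretch had a positive log2 fold change, as 6472 of all 12428 tested genes did, and F2r alone was called. For F2rl1 no difference was detectable. Whether reads of Iqgap2 introns entered the F2rl2 count was not tested, and the strand setting of the counting is not given in the sources used here.

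Neither gene of the coagulation start passed the test. F3, which encodes tissue factor, was at 9.97, 5.39 and 0 CPM in the WT group, against 3.56, 0.538, 5.03 and 2.08 CPM in the IL5-Tg group. WT replicate 3, with no F3 read, allows up to 3.40 CPM by the same floor, a level within the range of the IL5-Tg group, and it was the library with almost no fibroblast marker RNA. IL5-Tg replicate 2, with 7 F3 reads, had the lowest summed fibroblast level of its group, 1962 CPM. The highest, 4715 CPM, was in IL5-Tg replicate 4, with 2.08 CPM of F3. IL5-Tg replicates 1 and 3 had sums of 4054 and 2808 CPM, with 3.56 and 5.03 CPM of F3. WT replicates 1 and 2 had sums of 2974 and 3295 CPM, with 9.97 and 5.39 CPM of F3. The part of fibroblast RNA in the F3 level was not tested. For F3 the log2 fold change was -0.87 ± 1.21 (SE), and it was -1.43 without WT replicate 3 and 0.064 without WT replicate 1.

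F10, which encodes factor X, had 35.1, 18.6 and 26.7 CPM in WT and 39.1, 28.2, 22.7 and 16.5 CPM in IL5-Tg. The groups covered nearly the same range. WT libraries averaged 26.8 ± 8.26 CPM (SD, n = 3) and IL5-Tg libraries 26.6 ± 9.60 CPM (SD, n = 4), with a log2 fold change of -0.01 ± 0.35 (SE). Unlike F3, F10 kept its level in the WT library that was poor in fibroblast markers.

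St14 encodes matriptase, a membrane-bound serine protease that can activate urokinase and PAR2. In the WT group it was at 4.23, 7.07 and 7.56 CPM, from 70, 67 and 80 reads, and in the IL5-Tg group at 30.2, 34.4, 36.6 and 16.1 CPM. Every IL5-Tg library was above every WT library, and IL5-Tg replicate 4 was the lowest of its group, as it was for F2rl2 and F10. On average this was 6.29 ± 1.80 CPM (SD, n = 3) against 29.3 ± 9.17 CPM (SD, n = 4), and the log2 fold change was 2.22 ± 0.39 (SE). St14 stood just inside the threshold and was called under 8 of 16 alternatives. The log2 fold change stayed between 2.01 and 2.51, while the edgeR adjusted p was 0.179 and 0.0689 when WT replicate 1 or 2 was left out. When IL5-Tg replicate 1, 2 or 3 was left out it was 0.209, 0.223 or 0.189, and with the start that sample titles share as a term in the fit it was 0.175. Matriptase is best known from epithelia, and 2 of 8 epithelial markers, Epcam and Krt5, had no read in any library. The 8 summed to between 34.9 and 53.6 CPM in WT and between 17.2 and 36.0 CPM in IL5-Tg, most of it from the keratin gene Krt18. Krt18 differed in the direction opposite to St14, at 33.2 to 50.05 CPM in WT and 15.6 to 32.7 CPM in IL5-Tg, without overlap. Cdh1, the E-cadherin gene of the same list, had 0 reads in each WT library and 43, 15, 10 and 12 reads in the IL5-Tg libraries. These were 4.03, 1.15, 0.729 and 0.623 CPM, while the floor used for F2rl1 allows up to 0.906, 2.53 and 3.40 CPM in the WT libraries. A direction for Cdh1 was therefore not established. The part of epithelial RNA in the St14 level was not tested.

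Plaur, the urokinase receptor gene, had 166, 96.2 and 184 CPM in the WT group and 633, 728, 442 and 450 CPM in the IL5-Tg group. The lowest IL5-Tg library was well above the highest WT library. Its log2 fold change was 1.92 ± 0.32 (SE), and the edgeR adjusted p by which the gene was chosen was 0.0375. It was called under 9 of 16 alternatives, with a log2 fold change of 1.71 to 2.14 over all of them. Leaving out WT replicate 1 or 2 gave an edgeR adjusted p of 0.143 or 0.0651, and leaving out each IL5-Tg library gave 0.170, 0.132, 0.0850 and 0.0823. With the shared title start as a term it was 0.0521. Neutrophils are known to carry much urokinase receptor, and the summed level of 11 neutrophil markers was lower in IL5-Tg, at 3333 to 5934 CPM, than in WT, at 10248 to 13814 CPM. Retnlg made up most of that sum and was called lower by edgeR. The list was not uniform, since of 9 tested markers 2 had groups that did not overlap and were lower, and 1, Ngp, was called higher, at 0.362, 0 and 0 CPM in WT and 26.3 to 33.5 CPM in IL5-Tg. Macrophages carry the receptor too, and 12 markers of macrophages and monocytes summed to 5076 to 6621 CPM in WT and 5551 to 7360 CPM in IL5-Tg libraries. These ranges overlapped, and the most abundant markers, Adgre1 and Lyz2, weighed most in the sums. The part of these cells in the Plaur level was not tested.

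Plau, which encodes urokinase, was not called. WT libraries held 202, 127 and 17.7 CPM of it, and IL5-Tg libraries held 229, 117, 154 and 177 CPM. WT replicate 3 stood apart from the other 6 libraries, which covered a common range from 117 to 229 CPM. Fitted over all libraries, the log2 fold change was 0.55 ± 0.66 (SE), and without WT replicate 3 it was 0.069 ± 0.32 (SE). In the same library the fibroblast marker Col3a1 was at 4.54 CPM, against 609 to 1661 CPM in the other 6, and the macrophage marker C1qa at 68.4 CPM, against 350 to 776 CPM. C1qb, C1qc, Cd68, Mrc1 and Ms4a7 were also lowest of the 7 libraries there, with Cd68 at 109 CPM, against 266 to 658 CPM. The remaining markers of the list were not lowest there. Adgre1 was at 2459 CPM, the highest of the 7 libraries, and Csf1r was at 785 CPM, within the range of the others. The 12 markers summed to 5076 CPM, against 5551 to 7360 CPM. Adgre1 and Lyz2, the most abundant of the list, weighed most in that sum, so it says little about the other markers. The part of fibroblast and macrophage RNA in the Plau level was not tested.

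**Figure D2:**
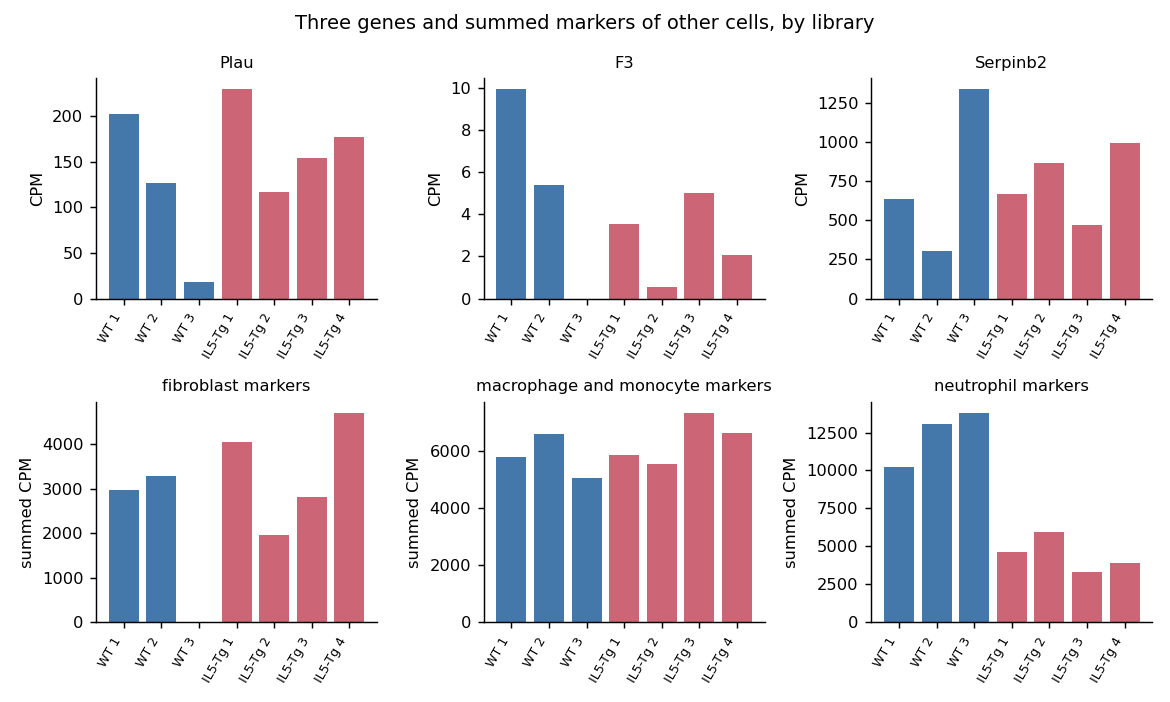
Levels of Plau, F3 and Serpinb2 in CPM (upper row) and summed CPM of the markers of fibroblasts, of macrophages and monocytes and of neutrophils (lower row) in each WT (blue) and IL5-Tg (red) library, all axes from 0. WT replicate 3 had 17.7 CPM of Plau, no F3 read and 16.7 CPM of fibroblast markers, with the highest Serpinb2 level of all 7 libraries.

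Serpinb2 encodes plasminogen activator inhibitor 2, a serpin that blocks urokinase and is known as a gene that macrophages induce strongly. Its CPM values were 639, 304 and 1341 in the WT group and 671, 868, 470 and 998 in the IL5-Tg group. The highest and the lowest of all 7 libraries were both WT, and the IL5-Tg libraries lay between them. Group averages were 761 ± 529 CPM (SD, n = 3) in WT and 752 ± 231 CPM (SD, n = 4) in IL5-Tg. A log2 fold change of -0.02 ± 0.45 (SE) over all libraries became 0.71 without WT replicate 3. Serpinb2 was thus highest in the library where fibroblast markers were nearly absent and Plau was lowest. An exon of Serpinb10, a neighbouring gene on the same strand, overlaps Serpinb2, so the division of their reads is uncertain, but Serpinb10 was at only 0.439 CPM in WT and 0.390 CPM in IL5-Tg libraries.

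**Figure D3:**
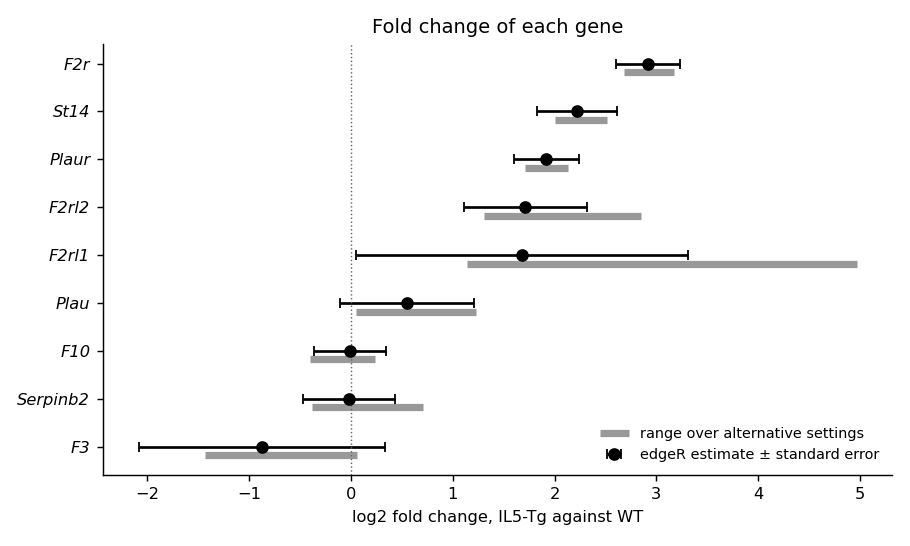
Log2 fold change of each gene between IL5-Tg and WT libraries (horizontal axis, positive when higher in IL5-Tg), with the edgeR estimate and its standard error as a point and bar and the range over up to 16 alternative settings in grey. F2r, St14 and Plaur stayed above 1.7 in all of them, whereas F10, Serpinb2 and F3 fell on both sides of 0.

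Levels of different genes were compared per length, as CPM per kilobase of exon (RPKM). Serpinb2 was first in both groups, at 324 ± 225 RPKM (SD, n = 3) in WT and 320 ± 98.3 RPKM (SD, n = 4) in IL5-Tg libraries. Plaur was next, at 56.8 ± 17.7 RPKM in WT and 215 ± 53.8 RPKM in IL5-Tg libraries, and its range overlapped with that of Serpinb2 in IL5-Tg but not in WT libraries. Plau followed at 48.8 ± 39.1 and 71.6 ± 19.9 RPKM. In WT libraries Plaur and Plau did not differ beyond their spread, and Plaur was above Plau in 1 of 3, while in IL5-Tg libraries it was above in 4 of 4. The ratio of Plaur to Plau per length was 0.743, 0.686 and 9.42 in WT against 2.50, 5.63, 2.60 and 2.30 in IL5-Tg. The high WT value came from the low Plau level of WT replicate 3.

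Below these came F10 at 9.81 ± 3.02 RPKM in WT and 9.74 ± 3.52 RPKM in IL5-Tg libraries. F2r was at 3.30 ± 1.17 RPKM in WT, below F10 in 3 of 3 libraries, and at 25 ± 2.31 RPKM in IL5-Tg libraries, where it was the fourth of the 9 genes and its range lay above those of F2rl2 and F10. F2rl2 was at 3.10 ± 2.89 and 10.1 ± 3.52 RPKM. In WT libraries F2r, F2rl2, F3 and St14 followed each other with ranges that overlapped between neighbours. St14 was at 0.823 ± 0.236 RPKM in WT and 3.84 ± 1.20 RPKM in IL5-Tg libraries. The exon length used for St14 was 7637 bases, against 2349 to 3336 bases for the other members, and its place in the order depends on that length. F3, at 2.03 ± 1.97 and 1.11 ± 0.764 RPKM, and F2rl1, at 0.204 ± 0.320 and 0.688 ± 0.522 RPKM, were the lowest in IL5-Tg libraries, and their ranges overlapped.

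**Figure D4:**
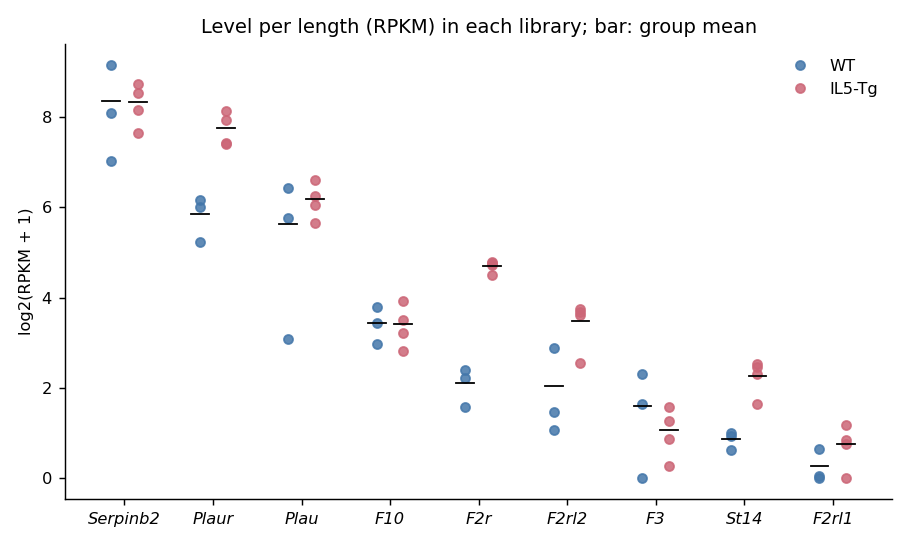
Level per exon length of the 9 genes, as log2(RPKM + 1) on the vertical axis, in the 3 WT (blue) and 4 IL5-Tg (red) libraries, with the group mean as a bar and the genes in the order of their WT means. In IL5-Tg libraries F2r lay above F10, and in WT libraries below it.

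The rest of the pathway was taken from 7 lists of 103 genes in all. Of these 102 were found by symbol, 7 had no read in any library and 74 were tested. By edgeR 0 of the 74 passed, against 0.410% of all tested genes in either direction, with 10 (13.5%) at an unadjusted p under 0.05, 2 higher and 8 lower. Over all tested genes that share was 9.04%, with 434 higher and 689 lower. By limma-voom 0 passed, and by DESeq2 2 of 95, Furin and Fpr2, against 224 of 16065 genes in all. The median log2 fold change of the 74 was 0.06. The genes named below are mainly the 2 of each list with the smallest p.

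Among 10 tested coagulation factors and cofactors, Vwf, which encodes the von Willebrand factor of endothelium and platelets, averaged 16.1 ± 6.75 CPM (SD, n = 3) in WT against 47.0 ± 25.8 CPM (SD, n = 4) in IL5-Tg (edgeR adjusted p = 0.326). F7, the partner protease of tissue factor, was at 12.3, 25.7 and 0 CPM in WT and between 27.3 and 51.2 CPM in IL5-Tg (edgeR adjusted p = 0.799), again with no read in WT replicate 3. Neither passed. The median of this list was -0.21. Among 7 tested anticoagulant proteins the values were -2.84 for the antithrombin gene Serpinc1 and 1.63 for the inhibitor gene Tfpi2 (log2 fold change, edgeR adjusted p = 0.544 and 0.854), and the median was 0.21.

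Of 10 tested genes for fibrinolysis proteases, inhibitors and plasminogen receptors, 0 passed by edgeR, limma-voom or DESeq2, 1 at an unadjusted p under 0.05. That was S100a10, part of a plasminogen-binding complex with annexin A2, with a mean of 727 ± 114 CPM (SD, n = 3) in WT against 493 ± 40.4 CPM (SD, n = 4) in IL5-Tg (edgeR adjusted p = 0.495). Plg, the plasminogen gene itself, and Plat, the tissue-type activator, had mean levels of 1.17 and 6.27 CPM in WT libraries.

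Proteins that partner the urokinase receptor had a median log2 fold change of 0.11 over 16 tested genes. The integrin genes Itgam and Itgb2, whose products form a receptor that binds to it, were at 0.04 and 0.22. The formyl peptide receptor Fpr2, which mediates migration toward bacterial and urokinase receptor fragments, was at 17.9, 8.24 and 3.50 CPM in WT and 1.78, 2.61, 1.02 and 1.87 CPM in IL5-Tg libraries. Its groups did not overlap. At -2.44 ± 0.66 (log2 fold change, SE) its edgeR adjusted p was 0.231. The adjusted p was 0.0233 by DESeq2, and 0.0232 by edgeR without WT replicate 3. Fpr1 was at -3.15 (edgeR adjusted p = 0.389) and rested on WT replicate 1, with 13.1 CPM there. Both are also neutrophil genes. Of the neutrophil markers given above 7 of 9 tested had a negative log2 fold change and Ngp was called higher, and the part of neutrophil RNA was not tested.

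The 19 tested genes of receptor signalling, mostly G proteins and their targets, had a median log2 fold change of -0.20. Gna13, the G protein subunit that links PAR1 to the small GTPase RhoA, averaged 148 ± 32.6 CPM (SD, n = 3) in WT against 94.8 ± 11.9 CPM (SD, n = 4) in IL5-Tg (edgeR adjusted p = 0.446). Rap1b, a small GTPase, was at -0.61 (edgeR adjusted p = 0.517). Gnaq and Gnai2, whose products also couple to PAR1, were at -0.23 and 0.10, against 2.92 for F2r, and these differences were not tested.

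Among 7 tested genes around matriptase, Furin, a protease of the secretory pathway that matures many precursors, was at 203, 143 and 276 CPM in WT and 408, 569, 550 and 374 CPM in IL5-Tg libraries. Its groups did not overlap. Furin's log2 fold change was 1.20 ± 0.30 (SE), with an edgeR adjusted p of 0.183, and by DESeq2 the adjusted p was 0.0200. Hpn, which encodes the membrane protease hepsin, was at -0.88 (edgeR adjusted p = 0.561). Spint1 and Spint2, the inhibitors of matriptase, were at 0.45 and 0.18, against 2.22 for St14. Among 5 tested proteases that can cut the receptors, the mast cell tryptase gene Tpsb2 was at 24.2, 35.8 and 33.1 CPM in WT and 6.0, 0, 9.77 and 6.07 CPM in IL5-Tg libraries (log2 fold change -2.50, edgeR adjusted p = 0.528), and Gzma was at 0.66. The summed level of 10 mast cell and basophil markers was 234 to 521 CPM in WT and 129 to 143 CPM in IL5-Tg libraries. Most of the WT sum was Hdc, which was called lower by edgeR, while Gata2 of the same list was at 14.3, 16.8 and 35.3 CPM in WT and 56.3 to 75.0 CPM in IL5-Tg, without overlap.

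**Figure D5:**
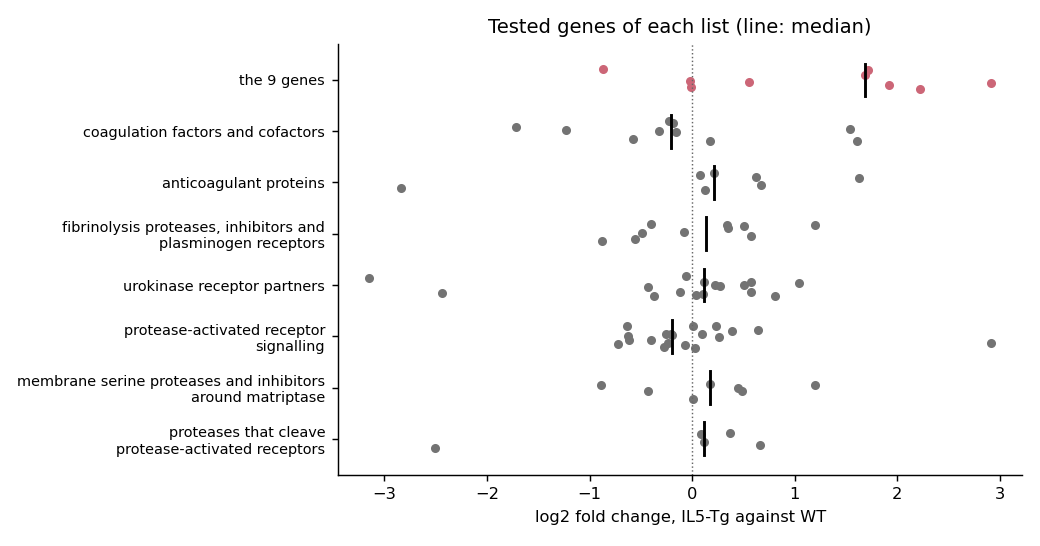
Log2 fold change between IL5-Tg and WT libraries (horizontal axis) of each tested gene of the 9 described here (red) and of the 7 pathway lists (grey), with the median of each list as a line and vertical scatter for legibility only. The medians of the 7 lists lay between -0.21 and 0.21, and that of the 9 genes, which were chosen with these values known, at 1.68.

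The genes whose profile over the 7 libraries was most like that of a called member were found among 9319 genes of at least 5 CPM on average, by the smallest root mean square difference of log2(CPM + 1) after centring each profile. For F2r they were Klrb1f, a receptor gene of natural killer cells (0.25), the resistin-like gene Retnla (0.26) and the exonuclease gene Exo5 (0.34). For Plaur they were the receptor gene Lrp12 (0.17), the lipid phosphatase gene Lpin1 (0.22) and the adenosine receptor gene Adora2b (0.24). For St14 they were Wdr25 (0.18), the semaphorin gene Sema4a (0.19) and Tmem40 (0.28). These are likenesses over 7 libraries that share 2 groups, and the difference between the groups makes up most of each profile.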

How the data were processed

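The authors deposited a table of raw counts, with a row per gene and a column per library whose name holds the sample title. Libraries were stranded and read from both ends, per the labels' protocols. The tools bcl2fastq 2.20, Bowtie and STAR and the build mm10 are named in the submitters' processing notes. How reads were counted, on which annotation and with which strand setting, is not given in the sources used here. Reads assigned to no feature (15.6% to 18.2% in WT and 9.15% to 13% in IL5-Tg) or ambiguous (0.750% to 0.943%) were left out.

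edgeR 4.0.16 in R 4.3.3 was run on all genes (TMM, filterByExpr by group, robust quasi-likelihood F test, genotype as the only term), and an adjusted p under 0.05 (Benjamini-Hochberg) was called. Standard errors are the size of the fold change over the root of its F value. Alternatives used DESeq2 1.42.0 and limma 3.58.1, among others. RPKM divides CPM by the exon length in GENCODE vM21, with the exons of all transcripts of a gene joined. The procedure was tested on simulated counts. The pathway lists had been written with earlier results of these data known, as the members were chosen. Named were the members, the called genes of each pathway list or else its 2 genes with the smallest p (1 such gene is not reported here), the 2 most abundant markers of a list and the 3 genes most like F2r, Plaur and St14. Others were named after their values were seen. Among them were Iqgap2, F2rl3, C1qa, C1qb, C1qc, Cd68, Mrc1, Ms4a7, Csf1r, Il5ra, Prg2, Ear1 and Ear6. Ngp, S100a8, S100a9, Cdh1, Serpinb10, Plg, Plat, Itgam, Itgb2, Gnaq, Gnai2, Spint1 and Spint2 were also among them.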

Additional observations from a re-analysis of the deposited data

Results flagged for a closer look

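The F2rl2 level of the IL5-Tg libraries was uneven. IL5-Tg replicate 4 stood at 12.3 CPM and the other 3 at 28.4 to 31.1 CPM, and the gap below them made up 0.854 of the group's range, above Dixon's critical value for 4 libraries. Chance gives such a gap in about 1 in 20 groups, and 9 genes were looked at. In the same library St14 was lowest of its group (16.1 CPM), while F2r was highest (89.1 CPM).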

How the results depend on the processing

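Of 141 values of single members under alternative settings, 111 kept their direction and their side of the threshold, 15 kept the direction but were no longer called, all of them for Plaur or St14, 1 became called (F2rl2) and 14 changed sign, 6 of Serpinb2, 7 of F10 and 1 of F3, none of which was called. The count of called genes in the whole table, 51, became 224 with DESeq2, 32 with limma-voom, 100 when counts were divided by the most common low count and 16 to 97 without single libraries. The count of called members, 3, became 1 (F2r) when the start that titles share was a term in the fit, with Plaur at an adjusted p of 0.0521 and St14 at 0.175, and 1 to 4 without single libraries. The count of called pathway genes, 0, became 2 with DESeq2 and 0 to 1 without single libraries. F10 changed sign with RLE normalization (0.00888), DESeq2 (0.00853) and no low-count filter (0.00390), and Serpinb2 with limma-voom (0.22), division by the most common low count (0.00366) and the title term (0.63). Without single libraries F10 lay between -0.24 and 0.24, Serpinb2 between -0.38 and 0.71 and F3 between -1.43 and 0.064. The causes were not tested. The median log2 fold change of all genes, 0.03, was at most 0.11 in any setting. No paired analysis was possible because the replicate numbers follow accession order and the labels name no pairs, and the fit with the title start is the only one with a block. That start, whose meaning the labels do not give, is shared across the groups by 2 WT and 2 IL5-Tg libraries. No other start occurs in both groups, so the genotype difference in that fit rests on these libraries. Counts of F2rl1, F2rl2, F3 and St14 in WT, and of F2r in WT replicate 2 (63 reads), were low enough that counting limits their precision.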
